A study of Mus musculus with 16 samples.

Results

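Enterocytes, the absorptive cells that line the villi of the small intestine, were compared with the Lgr5-positive intestinal stem cells (ISC) of the crypts from which they descend. The measurement was H3K27ac, acetylation of lysine 27 on histone H3, read by sequencing of immunoprecipitated chromatin (ChIP-seq). Both cell types came from the small intestine of male Lgr5EGFP-Cre-ERT mice on a mixed C57BL/6 CD1 background, aged 2 months (postnatal day 60). ISC were sorted for high Lgr5-EGFP. The enterocyte gate took cells with the epithelial adhesion molecule EpCAM and without CD31, CD45 or DAPI, and it holds no marker to part absorptive from secretory epithelial cells. Of the 16 samples of the series, the peak lists of 4 ChIP libraries enter this comparison, 2 from enterocytes and 2 from ISC. The series calls the libraries of a group biological duplicates, but the labels do not say whether each came from a separate animal. Lists from EpCAM-sorted gut epithelium at embryonic stages E12.5 and E14.5 on the same background, 2 libraries each, served to describe the history of each region.

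Overlapping or touching peaks of the 4 adult lists were merged into 57825 regions, and a library had a region when one of its peaks lay in it. Gained regions were those of both enterocyte libraries and of neither ISC library, and lost regions the opposite. By this rule 3267 regions were gained (5.65% of the merged regions) and 10575 were lost (18.3%). The 13842 gained and lost regions together, set beside the 16995 regions that all 4 libraries shared, are described below. Positions are on the mouse build mm9. Gene positions on that build were not used here, so regions are named by chromosome, start and end, and the cell-type labels were not set against marker genes.

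H3K27ac is deposited at active promoters and enhancers, and long stretches of it often lie over genes that define a cell type. The crypt stem cells divide throughout adult life under Wnt and Notch signals, and their daughters switch on the digestive, absorptive and lipid-handling programme of the enterocyte within days of leaving the crypt. A change of H3K27ac between the cell types shows at which positions the mark is present before and after differentiation. In bulk chromatin a missing peak can mean that fewer cells carry the mark or that each carries less of it, and these cannot be told apart.

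The 4 libraries did not have equal peak lists. Enterocytes had 36439 and 35614 peaks covering 38.8 and 38.8 Mb, from 42.2 and 34.6 M ChIP tags. ISC had 44594 and 51824 peaks covering 51.2 and 76.1 Mb, from 40.4 and 42.1 M tags. ISC replicate 2 stood apart: its median peak was 845 bp long against 652 to 698 bp in the other adult libraries, and peaks of 5 kb or longer numbered 2099 there, 855 in the other ISC library, and 613 and 521 in enterocytes. The part of this difference in the results was not tested, so the main counts and shares are also given without it.

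Every merged region was accounted for by the libraries that had it. After the shared regions, the largest set was the 15918 regions found in ISC replicate 2 alone, with a median length of 348 bp. ISC replicate 1 alone had 491 regions, enterocyte replicate 1 alone 3436 and enterocyte replicate 2 alone 1623. Just outside the rule for loss lay 2648 regions present in both ISC libraries and a single enterocyte library. In that library they were short and low in its list, with a median of 381 bp and a median percentile of 24.2 by −log10 q for the 1879 regions in enterocyte replicate 2. Just outside the rule for gain lay 1710 regions present in both enterocyte libraries and a single ISC library, which was ISC replicate 2 for 1679 of them. Without ISC replicate 2 the counts were 5256 gained and 17890 lost, and without ISC replicate 1 they were 3301 and 26922. Without enterocyte replicate 1 there were 6027 gained regions, and without enterocyte replicate 2 there were 7397. Asking 1 library instead of 2 loosens a group's criterion, which alone raises both counts. The number of losses per gain was 3.24, and it was 3.40 without ISC replicate 2, 8.16 without ISC replicate 1, 1.89 and 1.69 without enterocyte replicate 1 or 2, and 1.70 when each library was held to an equal number of peaks.

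**Figure D1:**
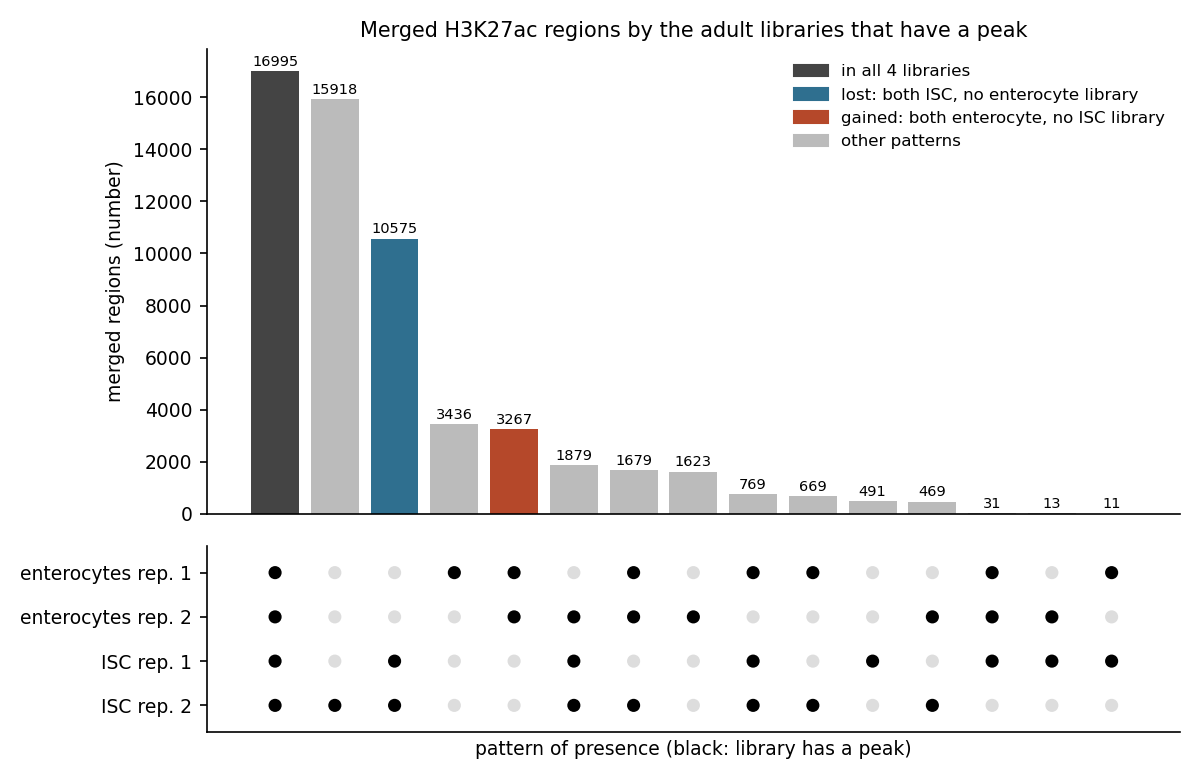
Number of merged H3K27ac regions (vertical axis) for each pattern of presence over the 4 adult libraries (dots, black where the library has a peak). Shared regions (16995) and regions of ISC replicate 2 alone (15918) are the tallest bars, and lost regions (10575) outnumber gained ones (3267).

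Gained and lost regions were short beside shared ones. The median length was 714 bp for gained, 1043 bp for lost and 2358 bp for shared regions. Leaving out ISC replicate 2 gave 751, 404 and 1805 bp, and without ISC replicate 1 they were 714, 484 and 2209 bp, so the order of gained and lost changed while shared regions remained the longest. These are lengths after merging. A shared region joins peaks of both cell types and a gained or lost region those of 1, which favours longer shared regions. In single libraries the median shared region was covered over 1.34 and 1.41 kb in enterocytes and 1.70 and 2.22 kb in ISC. By the smaller covered length of its 2 libraries, the median was 0.442 kb for gained and 0.526 kb for lost regions. Regions of at least 2 kb made up 6.31% of the gained, 16.8% of the lost and 61.4% of the shared regions. Gained regions held 6.73% and 5.89% of the length covered by peaks in the 2 enterocyte libraries. Lost regions held 17.1% and 18.1% of the covered length of the 2 ISC libraries. Shared regions held 83.6% and 85.6% of the covered length in enterocytes, and 76.2% and 64.8% in ISC. Most of the H3K27ac of either cell type by length therefore lay in regions where both had a peak. The shares are not lengths marked in both, since a short peak in the other cell type was enough. In the shared region that narrowed most, on chromosome 2 from 26337800 to 26353363, ISC had 13.9 and 15.5 kb and enterocytes 0.215 and 0.716 kb. By −log10 q, the authors' score for each peak, the median gained region stood at percentiles 42.4 and 33.8 of the enterocyte lists and the median lost region at percentiles 34.9 and 54.2 of the ISC lists. The median shared region stood between percentiles 72.6 and 83.0 of the 4 lists.

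Both ISC libraries had 30218 regions, and both enterocyte libraries kept 56.2% of these and neither 35.0%. Both enterocyte libraries had 21972 regions, of which both ISC libraries had 77.3% and neither 14.9%. How often an ISC region was missing from enterocytes followed its length, taken as the smaller of the covered lengths of its libraries. Any overlap with a peak counted as presence, which favours presence in longer regions. The part of this rule in the order was not tested. Of 7014 ISC regions under 500 bp, 71.8% were in neither enterocyte library. The share was 45.7% from 500 bp to 1 kb, 21.3% from 1 to 2 kb, 11.1% from 2 to 5 kb and 5.12% from 5 to 10 kb. Among the 251 ISC regions of 10 kb or more, 4 were absent from both enterocyte libraries and 243 were present in both. Those 251 were covered over a median of 13.2 kb in ISC against 9.62 kb in enterocytes. The same order held in the other direction: 35.2% of enterocyte regions under 500 bp were absent from both ISC libraries, and none of the 143 of 10 kb or more was. Without ISC replicate 2, the share of ISC regions missing from both enterocyte libraries went from 78.8% under 500 bp to 1.57% from 10 kb, and without ISC replicate 1 from 87.3% to 2.39%.

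**Figure D2:**
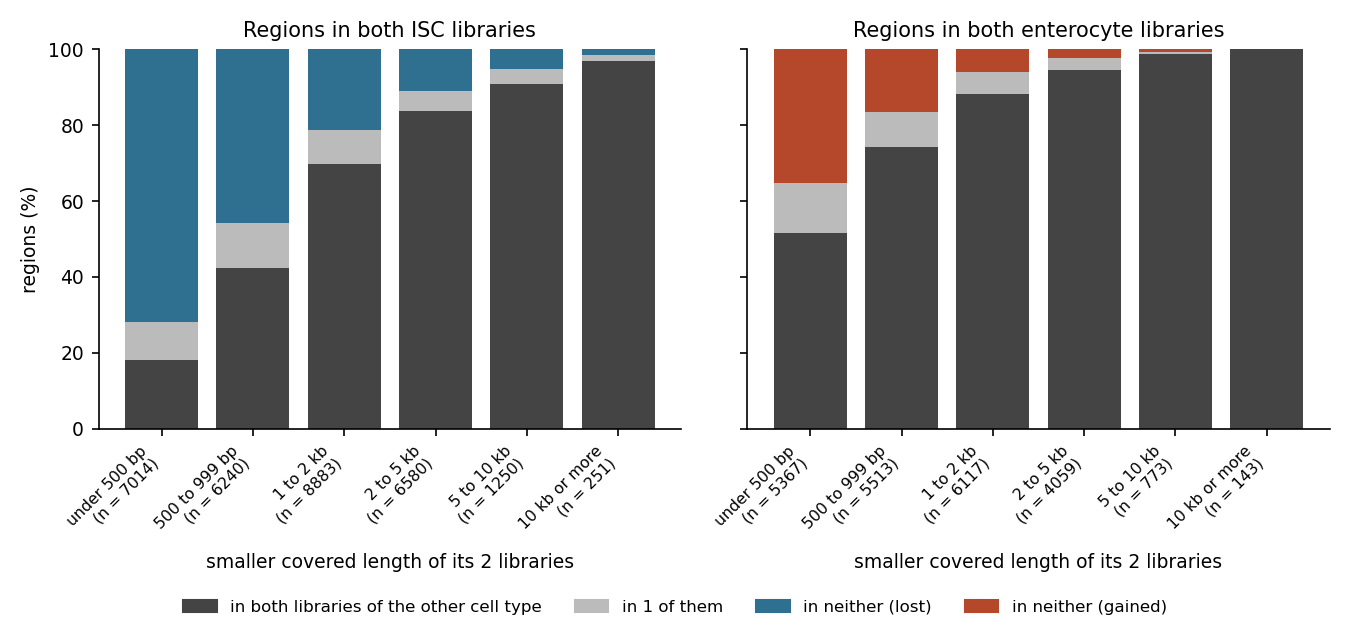
Share of the regions of both ISC libraries (left) and of both enterocyte libraries (right) that were found in both, 1 or neither library of the other cell type, by covered length. The share in neither falls from 71.8% to 1.59% for ISC regions and from 35.2% to 0% for enterocyte regions as length grows. Any overlap with a peak counts as presence, which favours presence in longer regions.

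Among the lost regions, the 10 with the greatest covered length, taken as the smaller of the 2 ISC values, were each covered over 8.31 to 17.7 kb in the ISC libraries. Their −log10 q stood between percentiles 76.6 and 90.6 of the ISC lists. The longest lay on chromosome 14 from 80398690 to 80416407, with 15.7 and 17.7 kb in the ISC libraries. Another of the 10 lay beside it, from 80380274 to 80392048 on the same chromosome. It had 11.6 and 11.7 kb in ISC, 3.71 and 3.37 kb at E14.5, and the E12.5 libraries had 4.47 and 6.10 kb. The neighbours thus differed in their embryonic history: the longest had no embryonic peak except 0.245 kb in E14.5 replicate 2, and the second was marked in all 4 embryonic libraries. In the 120 kb centred on the longest lost region, no peak was called in either enterocyte library, against 28.7 and 32.8 kb of peaks in ISC and 3.62 to 6.10 kb in the embryonic libraries.

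The other long lost regions were, with 1 exception, longer in both ISC libraries than in any embryonic one. Ranking by ISC length favours this order. On chromosome X from 136340040 to 136350682, peaks covered 9.54 and 10.6 kb in ISC, 6.66 and 6.29 kb at E14.5, beside 1.202 and 2.75 kb at E12.5. On chromosome 7 from 150111559 to 150121684, they covered 8.62 and 10.1 kb in ISC, 2.42 and 2.65 kb at E14.5, and the E12.5 libraries had 1.27 and 1.60 kb. On chromosome 2 from 71520952 to 71531093, they covered 8.31 and 10.1 kb in ISC, 2.32 and 2.25 kb at E14.5, beside 0.659 and 0.972 kb at E12.5. At these 3 positions the covered length of every library followed the order E12.5, E14.5, ISC, with nothing in enterocytes. The exception lay on chromosome 2 from 32746585 to 32757383, where the 9.12 and 10.8 kb of the ISC libraries overlapped the 9.88 and 9.15 kb of E14.5. On chromosome 6 from 114863083 to 114872553 peaks covered 8.82 and 9.47 kb in ISC and 5.51 to 6.83 kb in the embryo. Of the 10 long lost regions, 9 had a peak in both E14.5 libraries and 9 in both E12.5 libraries.

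The 10 longest gained regions, ranked like the lost ones by the smaller covered length of the 2 libraries, were shorter, covered over 4.30 to 8.11 kb, and stood between percentiles 60.4 and 94.0 of the enterocyte lists. Of these, 5 had a peak in both E14.5 libraries, 3 in both E12.5 libraries, and 4 in no embryonic library. The first by that rank, on chromosome 7 from 88256867 to 88263730, had 6.68 and 6.83 kb in enterocytes. The greatest length in a single library was 8.11 kb in enterocyte replicate 1, on chromosome 11 from 118846533 to 118854642, where replicate 2 had 4.94 kb. The 4 without an embryonic peak were seen in enterocytes alone among the 8 libraries. They lay on chromosome 11 from 55026425 to 55032630 (5.71 and 5.34 kb), on chromosome 19 from 32131627 to 32137208 (5.52 and 5.06 kb), on chromosome 5 from 148683522 to 148689190 (5.67 and 4.88 kb) and on chromosome 3 from 122570679 to 122575506 (4.83 and 4.30 kb). Another pattern appeared on chromosome 6 from 37344960 to 37352546, where enterocytes had 7.07 and 5.66 kb, ISC no peak, E12.5 libraries 2.69 and 4.60 kb and E14.5 libraries 1.61 and 1.03 kb. There the mark was present in both embryonic stages, absent from the stem cell lists, and longest in the enterocyte. In all 10, both enterocyte libraries were covered over a greater length than either E14.5 library, an order that ranking by enterocyte length favours.

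**Figure D3:**
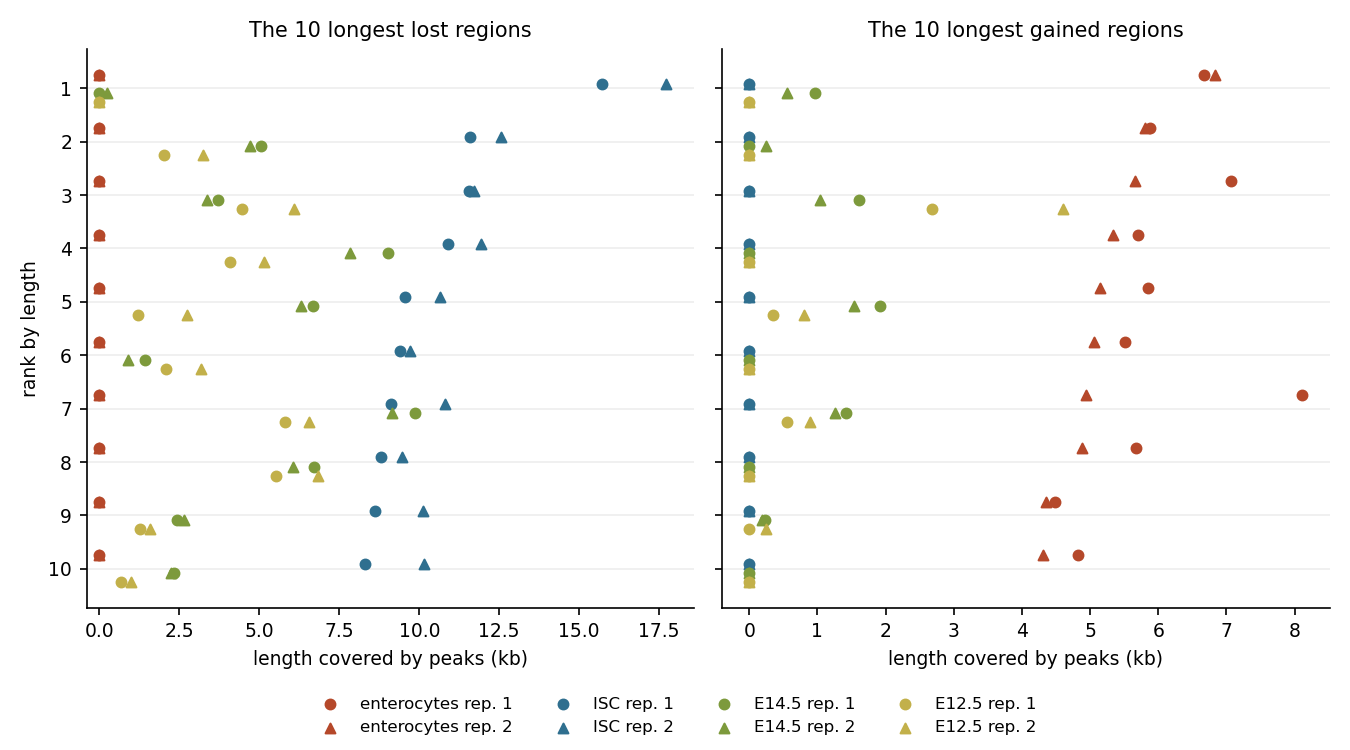
Length covered by peaks (kb) in each of the 8 libraries for the 10 longest lost (left) and gained (right) regions, ranked by length, with a point for each library. Embryonic libraries lie between 0 and ISC at most lost regions, and at or near 0 at most gained regions.

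The gained region on chromosome 11 from 78221117 to 78227119 was part of a wider change, and its surroundings were chosen for display after the values were seen. It had 5.85 and 5.15 kb in enterocytes, 1.92 and 1.54 kb at E14.5, and the E12.5 libraries had 0.351 and 0.802 kb. In the 120 kb centred on it, peaks covered 38.9 and 34.5 kb in enterocytes, 5.46 and 15.4 kb in ISC, 21.9 and 16.998 kb at E14.5, beside 8.65 and 12.3 kb at E12.5. Enterocytes had the greatest covered length of the 4 groups there, and no library of another group reached theirs. Beside the gained region, a shared one from 78229212 to 78236973 had 7.76 and 6.82 kb in enterocytes and 0.363 and 1.51 kb in ISC, a difference of 2.91 on the log2(covered bp + 500) scale (limma adjusted p = 0.00826, and 0.118 and 0.0717 without enterocyte replicate 1 or 2).

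**Figure D4:**
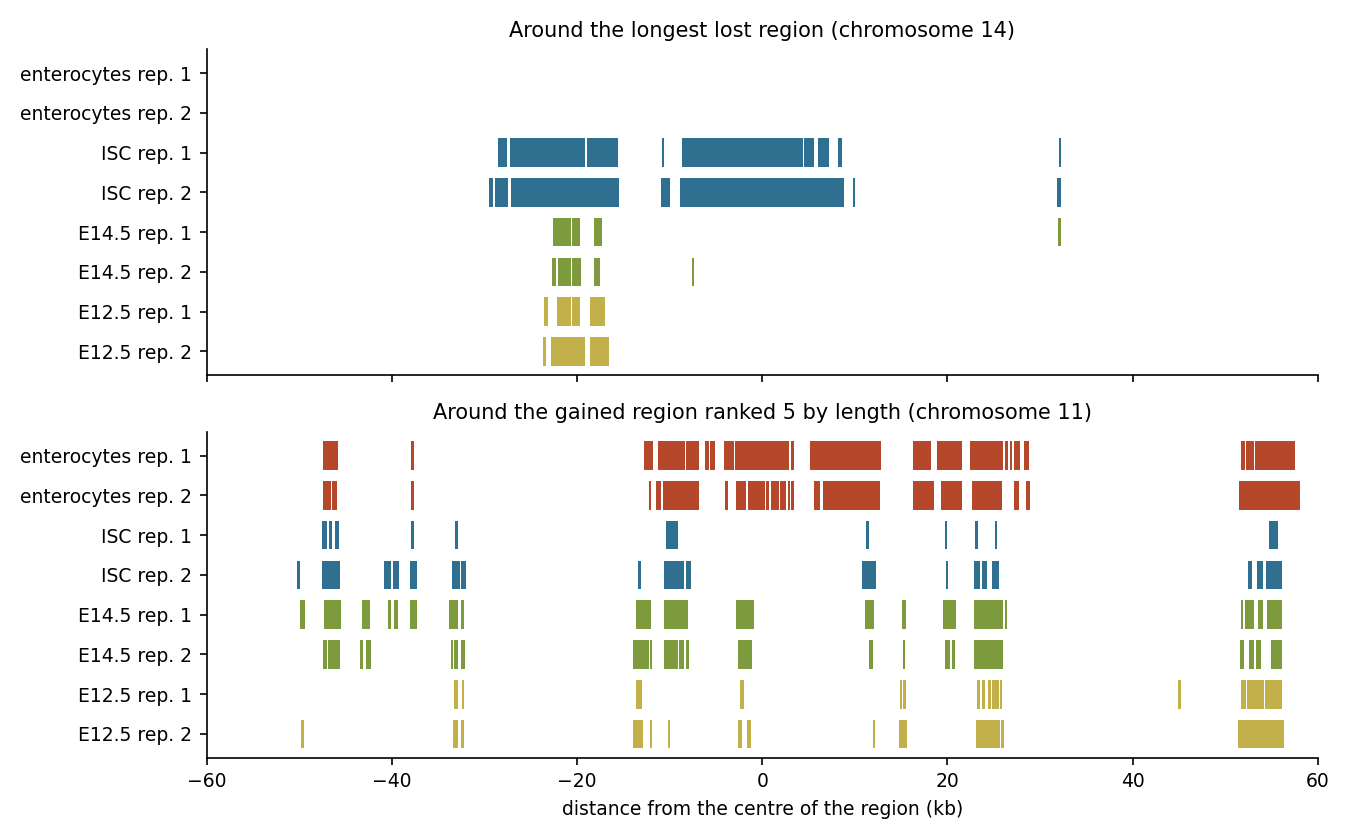
Peaks of each library (bars) within 60 kb of the centre of the longest lost region (top) and of the gained region ranked 5 by length (bottom), by distance from the centre in kb. At the lost region only ISC and embryonic libraries have peaks; at the gained region the enterocyte libraries are covered over 38.9 and 34.5 kb and ISC over 5.46 and 15.4 kb.

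The embryonic lists were not used to choose the regions, and they separated the classes. Of the lost regions, 54.8% were in both E14.5 libraries and 39.5% in both E12.5 libraries. Of the gained regions, 9.40% were in both E14.5 libraries and 4.62% in both E12.5 libraries. Shared regions had embryonic peaks most often, 87.6% in both E14.5 libraries and 74.5% in both E12.5 libraries. The classes did not overlap when the embryonic libraries were taken one at a time: E14.5 replicate 2 had 10.6% of the gained, 56.7% of the lost and 88.3% of the shared regions, and replicate 1 gave the same order, with 61.5% of the lost and 89.8% of the shared. With the stages joined, 2748 of the gained regions (84.1%) had no peak in any embryonic library, against 3593 of the lost (34.0%) and 1548 of the shared (9.11%). Regions marked in all 4 embryonic libraries numbered 113 among the gained, 3909 among the lost and 12607 among the shared. With ISC replicate 2 left out, both E14.5 libraries had 16.99% of 5256 gained, 50.3% of 17890 lost and 86.4% of 18622 shared regions, and without ISC replicate 1 they had 9.54%, 38.0% and 82.4%. The order of the classes was the same, and the share of gained regions was higher without ISC replicate 2. Shared regions were longer than the others, and these shares were not read within classes of length. What was also read within such classes is how often regions of each history were found in the other cell type.

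**Figure D5:**
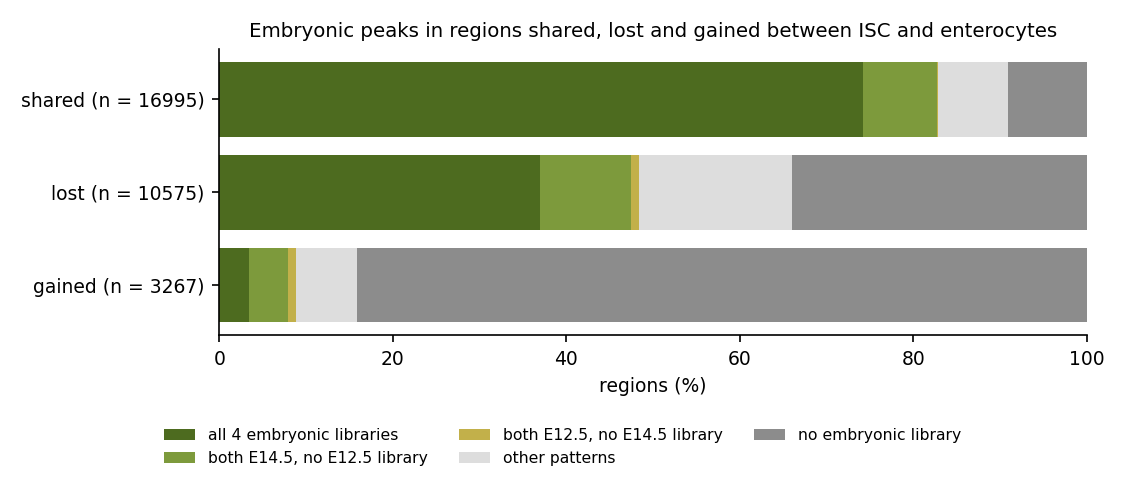
Share of shared, lost and gained regions by their presence in the embryonic libraries. The part with no embryonic peak grows from 9.11% of shared regions to 34.0% of lost and 84.1% of gained regions.

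Stem-cell regions that were also marked at E14.5 were kept more often in enterocytes than those without an embryonic peak. Of 17959 ISC regions that all 4 embryonic libraries had, 70.2% were kept in both enterocyte libraries and 21.8% in none. Of 2858 ISC regions present at E14.5 and in no E12.5 library, 51.2% were in both enterocyte libraries. Of 5684 ISC regions with no embryonic peak, 27.2% were kept in both enterocyte libraries and 63.2% in none. The 123 ISC regions present at E12.5 and in no E14.5 library went the other way, with 13.8% kept in both and 80.5% in none. The enterocyte libraries taken apart gave the same order for the first 3 of these sets, with 71.9%, 55.2% and 31.2% in replicate 1 and 76.6%, 57.1% and 32.8% in replicate 2. Among ISC regions covered over 1 to 2 kb, the shares kept in both enterocyte libraries were 78.3%, 61.2% and 40.1%, and 27.3% of the 22 seen at E12.5 alone. From 2 to 5 kb the first 3 sets had 88.6%, 73.5% and 47.1%. Over all lengths the shares without ISC replicate 2 were 63.8%, 43.5%, 19.9% and 10.99% for the 4 sets in this order, and without ISC replicate 1 they were 61.6%, 39.4%, 15.1% and 6.78%.

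Enterocyte regions that all 4 embryonic libraries had were nearly always ISC regions too. Of these 12906, 97.7% were in both ISC libraries and 0.876% in neither. Of 1818 enterocyte regions present at E14.5 and in no E12.5 library, 80.4% were in both ISC libraries. Of the 52 present at E12.5 and in no E14.5 library, 32.7% were in both and 53.8% in neither. Of 5291 enterocyte regions with no embryonic peak, 29.3% were in both ISC libraries and 51.9% in neither. Among those covered over 1 to 2 kb, 98.6% of the regions of all 4 embryonic libraries and 46.6% of those with no embryonic peak were in both ISC libraries. Leaving out ISC replicate 2, the share found in the other ISC library was 97.6% of the regions of all 4 embryonic libraries and 32.4% of those with no embryonic peak, and without ISC replicate 1 it was 99.1% and 47.9%.

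To test covered length across the genome, the length covered by peaks in windows of 20 kb was scaled to each library's total and fitted with limma over all 8 libraries. Covered length was lower in enterocytes in 7571 of 30733 windows (24.6%) and higher in 4153 (13.5%), at Benjamini-Hochberg adjusted p under 0.05. These p-values set the difference against the spread between the libraries at hand, estimated jointly over the 4 groups, embryonic ones included. With only the 4 adult libraries fitted, 3452 of 22590 windows were higher and 6671 lower. Without enterocyte replicate 1, 2571 windows were higher, and without ISC replicate 2, 4862 were lower. Of all calls, 35.4% were higher. Without scaling, 1552 were higher and 10094 lower, which put 13.3% of calls on the higher side; the median log2 change of all windows then lay at −0.41 instead of 0, so changes are relative to each library's total. Of the lower windows, 62.2% had no peak in either enterocyte library, against 44.5% of the windows without a call. Of the higher windows, 18.9% had no peak in either ISC library, against 32.2% of the windows without a call. The median lower window had 1.30 and 2.21 kb in the ISC libraries, 1.53 and 1.31 kb at E14.5, and 0 in both enterocyte libraries. The median higher window had 3.23 and 2.90 kb in enterocytes, 1.40 and 2.24 kb in ISC, 1.65 and 1.43 kb at E14.5, and the E12.5 libraries had 0.652 and 1.08 kb. Before scaling, the enterocyte and ISC libraries did not overlap in any of the 7571 lower windows. In 2593 of the 4153 higher ones the enterocyte libraries were both above the ISC libraries. Among the 19009 windows without a call, 5057 also had libraries that did not overlap, in the direction of their change. The ISC totals were larger, which favours lower values in enterocytes before scaling.

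The windows that fell most differed in their embryonic history. On chromosome 15 from 61620001 to 61640000, peaks covered 9.76 and 14.4 kb in ISC, 5.91 and 6.21 kb among E14.5 libraries, 0 and 0.307 kb among E12.5 libraries, and none in enterocytes (difference −4.42 ± 0.22 on the log2(covered bp + 500) scale, SE; adjusted p = 9.25e-05 by limma). On chromosome 11 from 112900001 to 112920000, embryonic and ISC libraries overlapped, with 9.78 and 13.9 kb in ISC and 8.79 to 12.3 kb in the embryo, and enterocytes had none (−4.40 ± 0.08, adjusted p = 4.93e-05 by limma). On chromosome 10 from 67700001 to 67720000, ISC had 11.1 and 13.3 kb and the embryonic libraries 5.29 to 7.80 kb, and neither enterocyte library had a peak. In each of these windows both enterocyte libraries were at 0 kb, so they added no spread to the SE.

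Windows that rose most differed in the same way. Of the named windows the largest rise was on chromosome 2 from 13400001 to 13420000. There enterocytes had 15.5 and 13.9 kb, ISC none, and the embryonic libraries 5.42 to 7.36 kb. The next, on chromosome 11 from 118840001 to 118860000, had 17.8 and 11.4 kb in enterocytes and 1.23 kb in ISC replicate 2 only. Its embryonic libraries had 3.385 to 6.41 kb. This window holds the gained region from 118846533 to 118854642 given above. On chromosome 4 from 139180001 to 139200000, peaks covered 7.12 and 6.64 kb in enterocytes, none in ISC, and 0.856 and 0.556 kb in the E14.5 libraries alone among the embryonic ones (4.33 ± 0.12, adjusted p = 5.01e-05 by limma). On chromosome 10 from 98680001 to 98700000, they covered 10.5 and 8.05 kb in enterocytes and 0.563 kb in ISC replicate 2 only (4.30 ± 0.44, adjusted p = 0.000839 by limma). In these windows on chromosomes 4 and 10 the embryonic libraries had under 1 kb. On chromosome 4 both ISC libraries were at 0 kb, so they added no spread to the SE. The window on chromosome 6 from 37340001 to 37360000, which holds the gained region given above, was marked in all 4 embryonic libraries, like those on chromosomes 2 and 11. It had 9.72 and 7.20 kb in enterocytes, none in ISC, 1.61 and 1.03 kb at E14.5, and 2.91 and 4.84 kb at E12.5.

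Called windows also lay in runs. The lower windows formed 5568 runs, single windows included, of which 398 had at least 3 consecutive windows and held 1459 windows. The higher windows formed 2880 runs, of which 258 had at least 3 and held 900. How many such runs would arise from the shares of windows called was not tested. With ISC replicate 2 left out there were 196 and 167 such runs, and without ISC replicate 1 there were 257 and 156. The longest run of losses spanned 260 kb on chromosome 11 from 112880001 to 113140000, and included the lower window on that chromosome described above. Within it peaks covered 61.0 and 98.9 kb in ISC, against 3.37 and 4.50 kb in enterocytes, with 99.96 and 86.5 kb at E14.5, beside 54.1 and 76.9 kb at E12.5. Embryonic and stem-cell libraries overlapped there, and the enterocyte libraries were far below all of them. The next run, 220 kb on chromosome 6 from 94580001 to 94800000, had another history, with ISC at 91.5 and 112 kb, enterocytes at 5.11 and 14.2 kb, 37.4 and 30.4 kb at E14.5, and the E12.5 libraries had 11.4 and 17.4 kb. There the ISC libraries stood above every other library. A run of 180 kb on chromosome 17 from 71000001 to 71180000 fell from 30.4 and 39.5 kb in ISC to 1.04 and 2.22 kb in enterocytes, with 22.2 to 31.4 kb in the embryonic libraries.

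The longest run of gains was shorter. It spanned 180 kb on chromosome 5 from 136100001 to 136280000, with 35.3 and 35.5 kb in enterocytes against 18.4 and 26.7 kb in ISC, with 13.9 and 11.2 kb at E14.5, beside 7.36 and 10.7 kb at E12.5. On chromosome 2 from 165940001 to 166060000, peaks covered 31.9 and 35.7 kb in enterocytes, 4.91 and 17.7 kb in ISC and 4.97 to 17.1 kb in the embryo. On chromosome 11 from 78200001 to 78300000, around the gained region already described, they covered 37.1 and 32.6 kb in enterocytes and 3.47 and 9.495 kb in ISC. In each of these 3 runs both enterocyte libraries stood above every other library, and so did they on chromosome 16 from 34020001 to 34140000, with 28.7 and 22.6 kb against at most 17.3 kb. Among the 5 longest runs of gains the exception was a run on chromosome 18, where enterocytes had 22.8 and 23.9 kb and the E14.5 libraries 25.7 and 21.6 kb. Losses over such spans left 1.04 to 14.2 kb of peaks in the enterocyte libraries of the 3 loss runs above, whereas in the first 3 gain runs above ISC already had 3.47 to 26.7 kb.

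The shared regions were compared for width, since a region present in all 4 libraries can still shrink or spread. With covered length scaled to the total over shared regions and fitted with limma to the 4 adult libraries, 2181 of 16995 regions were narrower in enterocytes (12.8%) and 1911 wider (11.2%). These counts depended on single libraries. Without enterocyte replicate 1, 1216 were wider. Without ISC replicate 2, 338 were narrower and 827 wider; without ISC replicate 1, limma called none in either direction at adjusted p under 0.05, with 2183 narrower and 2501 wider at unadjusted p under 0.05. Without scaling 3795 were narrower and 447 wider (10.5% of calls wider against 46.7%), with the median change at −0.35 on the log2 scale. No balance between narrowing and widening is therefore read from them. Before scaling, all 2181 narrower regions had both enterocyte libraries below both ISC libraries, and 1450 of the 1911 wider ones had them above. The libraries also did not overlap, in the direction of the change, in 6657 of the 12903 regions without a call. Over all 16995 shared regions this number was 10288. Both E14.5 libraries had 93.1% of the narrower regions, 77.1% of the wider and 87.6% of all shared regions, and both E12.5 libraries had 81.6%, 54.4% and 74.5%.

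The regions that narrowed most had only a short remnant in enterocytes, where the rule for shared regions requires some peak. On chromosome 2 from 26337800 to 26353363, peaks covered 13.9 and 15.5 kb in ISC against 0.215 and 0.716 kb in enterocytes (−3.74 ± 0.28 on the log2 scale, SE; limma adjusted p = 0.00512). The embryonic libraries had 5.45 to 10.3 kb there, so that every one stood above both enterocyte libraries. On chromosome 2 from 103118389 to 103144977, ISC had 24.8 and 26.6 kb, enterocytes 0.743 and 2.18 kb, and the embryonic libraries 8.41 to 14.7 kb (−3.50 ± 0.37, adjusted p = 0.00765 by limma). On chromosome 16 from 96075322 to 96085160, ISC had 8.63 and 9.78 kb, enterocytes 0.473 and 0.378 kb, and the embryonic libraries 0.355 to 2.27 kb. In the last of these the embryonic and enterocyte libraries overlapped, and the long form of the region was seen in ISC alone.

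Regions that widened most showed the reverse. On chromosome 14 from 121896398 to 121907058, enterocytes had 10.7 and 9.80 kb and ISC 0.238 and 0.883 kb (3.74 ± 0.24, adjusted p = 0.00440 by limma). The embryonic libraries had at most 0.560 kb there, and E12.5 replicate 1 had none. On chromosome 12 from 112654575 to 112664948, enterocytes had 10.2 and 10.2 kb, ISC 0.568 and 1.29 kb, and the embryonic libraries at most 0.844 kb. On chromosome 10 from 74681900 to 74687292, enterocytes had 5.31 and 4.30 kb, ISC 0.208 and 0.346 kb, and no embryonic library had a peak. At these positions enterocytes alone had the region in a long form. The 12 shared regions named by the rule, 6 in each direction, lost their calls without ISC replicate 1, where their adjusted p by limma was 0.0751 to 0.0839, and all kept their direction.

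Gained regions lay closer to shared regions than lost regions did. Of the gained regions, 40.4% had a shared region within 5 kb, at a median gap of 7.63 kb, against 24.1% of the lost at a median gap of 22.2 kb. A shared region had another within 5 kb in 40.0% of cases. Without ISC replicate 2 the shares were 45.1% of the gained and 34.2% of the lost, and without ISC replicate 1 they were 50.4% and 32.3%. Another gained region lay within 5 kb of 48.8% of the gained regions, and 23.6% had none within 100 kb. Another lost region lay within 5 kb of 38.1% of the lost regions, and 15.4% had none within 100 kb. This order turned with the libraries: without ISC replicate 2 the shares within 5 kb were 52.5% of the gained and 62.1% of the lost, and without ISC replicate 1 they were 48.9% and 62.9%. Joining peaks within 1 kb took the gained regions from 3267 to 1707. A lost region lay within 5 kb of 1.81% of the gained regions, against 14.9% of the shared and 23.5% of the regions that were neither gained, lost nor shared. In the absence of ISC replicate 2 it lay within 5 kb of 5.27% of the gained and 27.5% of the shared regions, and without ISC replicate 1 of 8.69% and 36.1%.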

How the data were processed

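H3K27ac ChIP-seq peak lists of 8 libraries were used, 2 per group. The submitters' processing notes name the build mm9 and the tools MACS2, SAMtools 1.2, Bowtie 1.1.2 and bcl2fastq 1.8.4. Per the file headers, MACS 2.1.0.20140616 called peaks for each library against its own input, without broad mode at a q-value under 0.05, with 51 bp tags, 1 tag kept per position and the larger library scaled to the smaller. The deposited pileup signal, −log10 p and q and fold enrichment ratio are MACS output, per the file headers, and were used for ranks and filters inside each list alone. No counts per region were used, so no counting interval is given.

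Peaks were merged and classed as the report states, with Python 3.11.15. Covered lengths as log2(covered bp + 500) were fitted with limma 3.58.1 in R 4.3.3 (lmFit, eBayes with trend and robust). The windows fit used 4 group means and windows with a peak in at least 2 of the 8 libraries, the shared-region fit the 4 adult libraries. A single region with 2 libraries against 2 cannot give an exact permutation p below 0.333, so region classes carry no test. The scripts were tested on simulated data. Named are the 10 longest regions per class, the 8 windows and 6 shared regions with the largest change per direction whose groups did not overlap (windows at least 40 kb apart), and the 5 longest runs per direction, of which examples are given. These members and rules were chosen with earlier results of these data known. The gene table supplied is on GRCm38.p6; it was not used for positions, and marker genes were not analysed here.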

Additional observations from a re-analysis of the deposited data

How the results depend on the processing

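Depth and the peak threshold limit what a missing peak can show, and 2 libraries a group limit every spread. Of 36 values for regions 15 stayed close to those reported (counts within 1.5 times, shares within their binomial interval), of 30 for windows 25, and of 20 for shared regions 11; for the others the cause was not tested. At −log10 q of at least 10, 1525 regions were gained and 6810 lost, E14.5 shares were 8.33% of gained and 56.9% of lost, 2732 windows were higher, and 960 shared regions were wider and 1179 narrower. With equal peak numbers the ratio of losses to gains was 1.70 and 52.3% of lost regions were in both E14.5 libraries. Joining within 1 kb gave 1707 gained regions and an E14.5 share of 58.0% of lost. Asking for 50% of a region to be covered gave E14.5 shares of 7.64% of gained and 56.4% of lost. Windows of 50 kb gave 2733 higher. Without scaling 1552 windows were higher, and 447 shared regions wider and 3795 narrower. With a library left out, the ranges were 3301 to 7397 gained, 11375 to 26922 lost and 1.69 to 8.16 losses per gain. Without 1 ISC library, added after seeing the data, E14.5 shares were 9.54% to 16.99% of gained and 38.0% to 50.3% of lost. They were 2571 (without enterocyte replicate 1) to 3567 higher and 4862 (without ISC replicate 2) to 7528 lower windows, and 0 to 1902 wider and 0 to 3256 narrower shared regions. A single library left in a group is taken to vary like the others.

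Same-numbered enterocyte and ISC libraries deviated weakly in opposite directions (correlation −0.12 over 30733 windows). The other pairs of groups gave −0.18 to 0.17, so this value cannot show whether the numbers pair the libraries. The labels do not give it either. The replicate block gave 3850 higher and 7172 lower windows and 1512 wider and 1784 narrower shared regions. The block with crossed numbers, added after seeing the data as was centring on the median, gave 3977, 7403, 2157 and 2411. All 208 values of the 16 named windows kept direction and call, with limma adjusted p up to 0.0237. Of the values of the 12 named shared regions, 92 kept their call and 16, all without 1 library, did not, with adjusted p of 0.0717 to 0.167. Other window sizes for named windows, and the stricter threshold for named shared regions, were not run. The size of the differences followed the length added before the logarithm. The window on chromosome 14 from 75300001 stood at −7.11 with 100 bp added, −4.83 with 500 bp and −2.98 with 2000 bp. Both enterocyte libraries had 0 kb there, so they added no spread to its SE.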

Other observations

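Chromosome X had the greatest share of lost regions with all 4 libraries. Of its 1162 merged regions, 25.3% were lost and 4.30% gained, against 16.5% to 20.5% lost and 3.48% to 6.99% gained on the 19 autosomes. Its share of each library's covered length was 1.26% and 1.202% in enterocytes, 1.60% and 1.53% in ISC, 1.61% and 1.62% at E14.5, and 1.85% and 1.83% at E12.5. The ratio of the enterocyte to the ISC mean was 0.785 for chromosome X and 0.900 to 1.09 for the autosomes. Both adult groups are males. By length, 61.3% of 393 ISC regions under 1 kb on chromosome X were lost against 59.5% of 12857 on autosomes, 21.4% of 220 against 21.3% of 8661 from 1 to 2 kb, 6.49% of 77 against 11.1% of 6503 from 2 to 5 kb, and 11.1% of 9 against 4.49% of 1492 from 5 kb. Over all lengths 42.1% of 699 and 34.8% of 29513 were lost. Without ISC replicate 2 these were 48.5% and 44.6%, and without ISC replicate 1 they were 55.3% and 54.4%, smaller differences in both cases.

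Among autosomes, chromosome 15 had the fewest gains for its losses, with 80 gained and 451 lost regions (5.64 losses per gain), and chromosome 3 the most, with 195 and 484 (2.48). Chromosome X had 5.88 losses per gain. The share of covered length on chromosome 19 was 3.98% and 3.97% in enterocytes and 3.65% and 3.62% in ISC. It was 3.37% and 3.36% at E14.5 and 3.22% and 3.22% at E12.5, so that the groups did not overlap. Separation of enterocytes from ISC was common: their shares overlapped on chromosomes 5, 7, 8 and 18 alone.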
